A study of Mus musculus with 6 samples.

Results

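The miR-34 family of the mouse was measured in RPE-choroid-sclera complexes, the retinal pigment epithelium (RPE) with the vessel and outer coats of the eye behind it, after laser-induced choroidal neovascularization (CNV). Its 6 members, mmu-miR-34a-5p, mmu-miR-34a-3p, mmu-miR-34b-5p, mmu-miR-34b-3p, mmu-miR-34c-5p and mmu-miR-34c-3p, are the arms of 3 precursors and were taken by name from 1836 listed miRNAs. The family was chosen from earlier results of the same comparison of CNV with Control, so its differences between these groups are given as a description, with no p-value. CNV libraries came from male mice of 7 to 8 weeks whose eyes received 25 laser burns around the optic disc (532 nm, 100 mW, 0.1 s, 50 µm), with tissue taken 7 days later. Control libraries came from male mice of the same ages without laser, and neither the CNV nor the Control labels name a strain, a transgene or a drug. Each group had 3 libraries, each made from the pooled tissue of 4 eyes. The labels do not say that the pools came from different mice, so p-values and SDs measure only the spread between these pools, which may in part be technical.

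MicroRNAs (miRNAs) are short RNAs that are cut from a hairpin precursor and guide the silencing of messenger RNAs. Pairing begins at the seed, bases 2 to 8 counted from the 5′ end, and the arm of the hairpin nearer its 5′ end gives the 5p miRNA and the other arm the 3p miRNA. The transcription factor p53 binds and activates both miR-34 loci, and the 5p arms repress messenger RNAs of the cell cycle and of survival, among them those of cyclin-dependent kinases, Met, Bcl2 and Sirt1. In mice, miR-34a is made in many tissues, whereas miR-34b and miR-34c are cut from a shared transcript and are known for high levels in testis and in epithelia with motile cilia. The miR-449 miRNAs carry the same seed as the 5p arms and act with miR-34b and miR-34c in making motile cilia.

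The sequences show which members share a seed. They are RefSeq's mature sequences (GRCm38.p6), which 5 of the 6 members matched by name, printed with the seed in capitals. The 5p arms and the miR-449 miRNAs with the same seed come first.
miR-34a-5p: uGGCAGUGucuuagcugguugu
miR-34b-5p: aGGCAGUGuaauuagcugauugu
miR-449a-5p: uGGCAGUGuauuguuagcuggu
miR-449c-5p: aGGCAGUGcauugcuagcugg
The 3p arms have other seeds.
miR-34b-3p: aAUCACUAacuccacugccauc
miR-34c-3p: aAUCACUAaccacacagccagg
miR-34a-3p: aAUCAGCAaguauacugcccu

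The 5p arms of miR-34a and miR-34b shared every seed base and most of their 3′ ends. Aligned at their first base without gaps, they were identical at 11 of 22 positions, 7 of them among bases 1 to 8. Aligned at their last base, which allows for the extra base of miR-34b-5p, they were identical at 11 of the last 12 positions. The 3p arms of miR-34b and miR-34c shared their seed and 17 of 22 positions, whereas the seed of miR-34a-3p was a different one. The printed members thus differ in sequence outside the seed. The most abundant member, miR-34c-5p, had no match by name, so its sequence was not compared with the others. Of the 6 members, 0 had counts identical to those of another miRNA in all libraries. That does not show that reads of similar arms were kept apart, which was not tested.

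The precursors below place both arms in their hairpins, with the mature arms in capitals.
Mir34a: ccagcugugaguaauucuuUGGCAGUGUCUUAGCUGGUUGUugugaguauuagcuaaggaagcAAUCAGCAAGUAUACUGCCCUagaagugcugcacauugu
Mir34b: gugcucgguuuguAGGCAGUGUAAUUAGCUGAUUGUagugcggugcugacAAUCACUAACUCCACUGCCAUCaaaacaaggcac
Mir34a lies on mouse chromosome 4, chr4:150068454-150068555 on the plus strand (GRCm38, GENCODE M21), and its end overlaps an exon of Gm37795, a transcript annotated as still to be experimentally tested. Mir34b is at chr9:51103562-51103645 and Mir34c at chr9:51103034-51103110, both on the minus strand of chromosome 9 with 451 bases between them. Both lie within an intron of the protein-coding gene Btg4, which is annotated on the opposite strand. In RefSeq's annotation both also lie within the span of the gene Hoatz, chr9:51081310-51105834. Which build the authors used is not stated in these sources.

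The 6 libraries held 5057142 to 12839386 counts of miRNAs and tRNA-derived small RNAs (tsRNAs), and Control replicate 2 was the deepest. Levels below are CPM, counts relative to the library total, after scaling by trimmed mean of M-values (TMM), a correction for differences in composition, and errors are SDs over 3 libraries. The family had 3769, 4389 and 3427 counts in the CNV libraries, against 2100, 4898 and 1859 in the Control libraries. Its share of all miRNA counts was 0.0760% ± 0.0144 in CNV and 0.0406% ± 0.00216 in Control (n = 3 each). The miR-34 arms were thus minor members of these libraries. The labelled tissue was checked against miR-204-5p and miR-211-5p, miRNAs abundant in RPE, whose summed level was 4520.5 to 6496.3 CPM in CNV and 6765.6 to 6982.3 CPM in Control. Photoreceptor and neuron miRNAs, which belong to the neural retina, each summed to more than these RPE miRNAs in every library. The photoreceptor miRNAs summed to 24725.8 to 49452.9 CPM in CNV and 49327.7 to 75748.2 CPM in Control. Those of neurons summed to 7828.0 to 12492.6 CPM in CNV and 13868.3 to 21049.2 CPM in Control. How much neural retina the pools held was not tested.

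The 5 arms with enough reads had higher levels in every CNV library than in any Control library. The same held for 69 of 541 tested miRNAs, or 12.8%. The lowest CNV library was at 1.17 to 1.645 times the highest Control library. Between the groups, the fit over all small RNAs gave 1.90-fold to 2.18-fold, and edgeR called 0 of these 5 arms after adjustment. The sixth arm, miR-34a-3p, was close to 0 throughout. Both loci differed by about the same factor, and neither the ratio of the loci nor the 5p share of any precursor separated CNV from Control. Since the tissue was analysed in bulk, more cells of a type and more RNA per cell cannot be told apart.

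The 5p arm of miR-34c, the most abundant member, had 1835, 2214 and 1871 counts in CNV replicates 1 to 3, against 1058, 2420 and 958 in Control replicates 1 to 3. Scaled to library size, these were 356.9, 440.5 and 321.6 CPM in CNV, against 182.4, 173.9 and 195.5 CPM in Control. The lowest CNV library stood well above the highest Control library, and CNV replicate 2 was the highest of all. The mean was 373.0 ± 61.1 CPM in CNV and 184.0 ± 10.9 CPM in Control (SD, n = 3 each), a log2 fold change of 1.02 with a standard error (SE) of 0.17 in edgeR's fit. Of 541 tested miRNAs, 14 had a larger log2 fold change. By count miR-34c-5p ranked 109th to 128th among the listed miRNAs of the CNV libraries and 151st to 163rd in those of Control.

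The 5p arm of miR-34a, the best studied of the p53-induced miRNAs, was next in level. It was at 238.2, 277.3 and 167.9 CPM in CNV replicates 1 to 3, against 121.9, 123.4 and 112.9 CPM in Control replicates 1 to 3. The groups did not overlap, but CNV replicate 3 lay nearer to the Control libraries than the other CNV libraries did. The mean was 227.8 ± 55.4 CPM in CNV and 119.4 ± 5.69 CPM in Control, with a log2 fold change of 0.93 (SE 0.20). The counts behind these levels were 1225, 1394 and 977 in CNV and 707, 1717 and 553 in Control. The Control libraries differed by little more than counting error, with a coefficient of variation (CV) of 4.77%, against 3.56% from counting alone. The CNV libraries varied by 24.3%, against 2.92% from counting alone.

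The 5p arm of miR-34b, cut from the same transcript as miR-34c, was at 101.9, 104.3 and 69.4 CPM in CNV, against 43.1, 35.8 and 47.8 CPM in Control. CNV replicates 1 and 2 were close together and CNV replicate 3 was lower, as for miR-34a-5p, yet still above all of the Control libraries. The mean was 91.9 ± 19.5 CPM in CNV and 42.2 ± 6.04 CPM in Control, from 404 to 524 counts in CNV and 234 to 498 in Control. Its log2 fold change of 1.13 (SE 0.21) had the largest size in the family, and 9 tested miRNAs had a larger one. The SEs of the family's fold changes overlap, so this order within the family is not resolved.

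The 3p arms, the strands that are usually less retained in the silencing complex, were scarcer. The 3p arm of miR-34b was at 25.5, 36.6 and 18.4 CPM in CNV, against 9.83, 12.1 and 15.7 CPM in Control. CNV replicate 3 exceeded Control replicate 3 by only a small margin, the narrowest gap among the 5 arms. The log2 fold change was 1.10 (SE 0.30), and the counts were 107 to 184 in CNV and 57 to 169 in Control. For the smallest of these counts, 57 in Control replicate 1, the exact 95% Poisson interval is 43.2 to 73.8.

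The 3p arm of miR-34c had 52, 68 and 64 counts in CNV and 28, 83 and 37 in Control, the large Control count coming from the deepest library. Scaled to library size, these were 10.1, 13.5 and 11.0 CPM in CNV, against 4.83, 5.96 and 7.55 CPM in Control, so the groups did not overlap. The log2 fold change was 0.92 (SE 0.25). At this depth counting error is a large part of the spread, since the CV in CNV was 15.4%, against 12.9% from counting alone, and that in Control 22.4%, against 15.8%.

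The 3p arm of miR-34a was barely detected. It had 2, 5 and 4 counts in CNV, against 0, 11 and 0 in Control, and its groups overlapped. The exact 95% Poisson interval of a count of 0 reaches 3.69 counts, so a difference between the groups was not detectable at this depth and no fold is given. It was below 1.82 CPM, the level of the filter on low counts, in all 6 libraries and was not tested. The other 5 arms were above that level in each of the 6 libraries, so none passed through the CNV libraries alone.

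**Figure D1:**
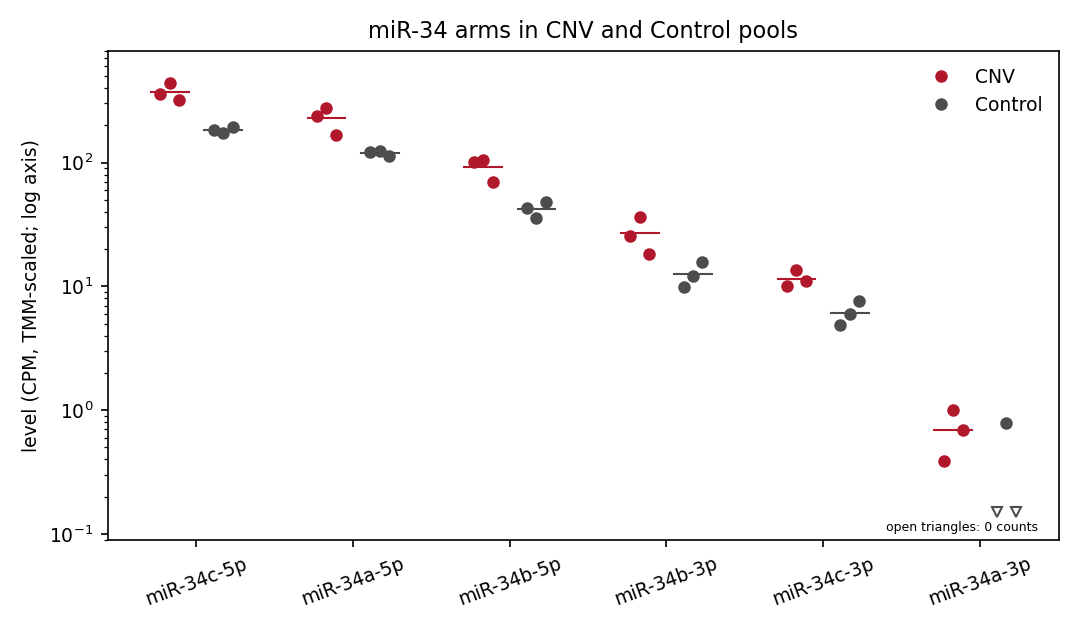
Level of each miR-34 arm (CPM, TMM-scaled, log axis) in the 3 CNV libraries (red) and the 3 Control libraries (grey), with replicates 1 to 3 from left to right. Bars are group means where all counts were above 0, and open triangles mark counts of 0. The CNV points lie above the Control points for 5 arms, and the arms keep their order in both groups.

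The order of the levels was the same in all 6 libraries: miR-34c-5p, miR-34a-5p, miR-34b-5p, miR-34b-3p, miR-34c-3p and miR-34a-3p. Within each group, no library of a lower arm reached a library of the next higher one. The narrowest step in CNV was that between miR-34c-5p and miR-34a-5p, where the lowest library of miR-34c-5p was at 1.16 times the highest library of miR-34a-5p. In Control the narrowest step was that between miR-34b-3p and miR-34c-3p, at 1.30 times. Mature miRNAs have nearly the same length, so these levels were not divided by length. Adapter ligation and amplification can favour some sequences over others, and their part in the order was not tested.

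In the quasi-likelihood test of edgeR, adjusted by Benjamini-Hochberg over 997 small RNAs, 3 small RNAs passed a threshold of 0.05, a background of 0.301%, and 0 of the 5 tested arms were among them. At an unadjusted p under 0.05 edgeR counted 5 of the 5 arms, among 95 of 541 miRNAs, and limma-voom called 0 arms. DESeq2 called 4 of the 5, all higher in CNV and all but miR-34c-3p, where its background of small RNAs called higher was 2.71%. All CNV libraries lay above all Control libraries for 5 of the 5 arms, as for 69 of 541 miRNAs, or 12.8%. The family was chosen from this contrast, so nothing is read from these shares. The median log2 fold change of the 5 arms was 1.02, and that of all 541 tested miRNAs was 0.015.

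**Figure D2:**
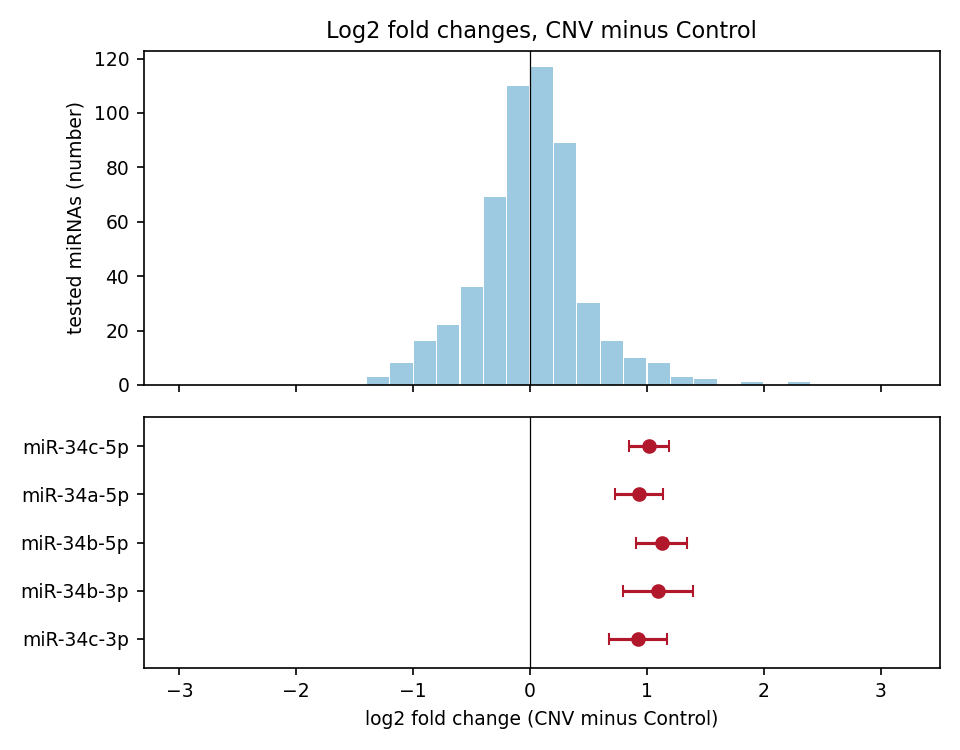
Upper panel, number of tested miRNAs (541) by log2 fold change of CNV minus Control. Lower panel, the 5 tested miR-34 arms with their log2 fold change and SE from edgeR's fit. The arms lie between 0.92 and 1.13, on the right flank of the distribution.

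The miR-34a locus was set against the miR-34b/c locus by summing the arms of each. The miR-34a locus summed to 238.6, 278.3 and 168.6 CPM in CNV replicates 1 to 3, against 121.9, 124.2 and 112.9 CPM in Control replicates 1 to 3. The miR-34b/c locus summed to 494.4, 594.9 and 420.4 CPM in CNV, against 240.2, 227.8 and 266.6 CPM in Control. The libraries of the 2 groups did not overlap at either locus, and CNV replicate 2 was the highest and CNV replicate 3 the lowest CNV library at both. The ratio of the means was 1.91 for miR-34a and 2.06 for miR-34b/c, and the mean log2 differences were 0.90 and 1.03.

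The ratio of the loci does not depend on how libraries are scaled. The miR-34b/c sum was 2.07, 2.14 and 2.49 times the miR-34a sum in CNV, against 1.97, 1.83 and 2.36 times in Control. The means were 2.23 ± 0.227 in CNV and 2.06 ± 0.274 in Control (SD, n = 3 each), and the groups overlapped. The log2 difference between the groups was 0.12 (0.042 without CNV replicate 3, 0.046 without Control replicate 2 and 0.23 without Control replicate 3), smaller than the SD of the log2 ratio within either group, 0.14 in CNV and 0.19 in Control. In both groups replicate 3 had the highest ratio. Between single arms, miR-34c-5p was at 1.50, 1.59 and 1.92 times miR-34a-5p in CNV, against 1.50, 1.41 and 1.73 times in Control, which overlapped as well.

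The arms within the miR-34b/c transcript kept their proportions within the spread of the libraries too. The level of miR-34c-5p was 3.50, 4.22 and 4.63 times that of miR-34b-5p in CNV, against 4.23, 4.86 and 4.09 times in Control. The level of miR-34b-3p was 2.52, 2.71 and 1.67 times that of miR-34c-3p in CNV, against 2.04, 2.04 and 2.08 times in Control. The 5p arm of miR-34c thus exceeded that of miR-34b in all libraries, whereas the order was turned round for their 3p arms.

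**Figure D3:**
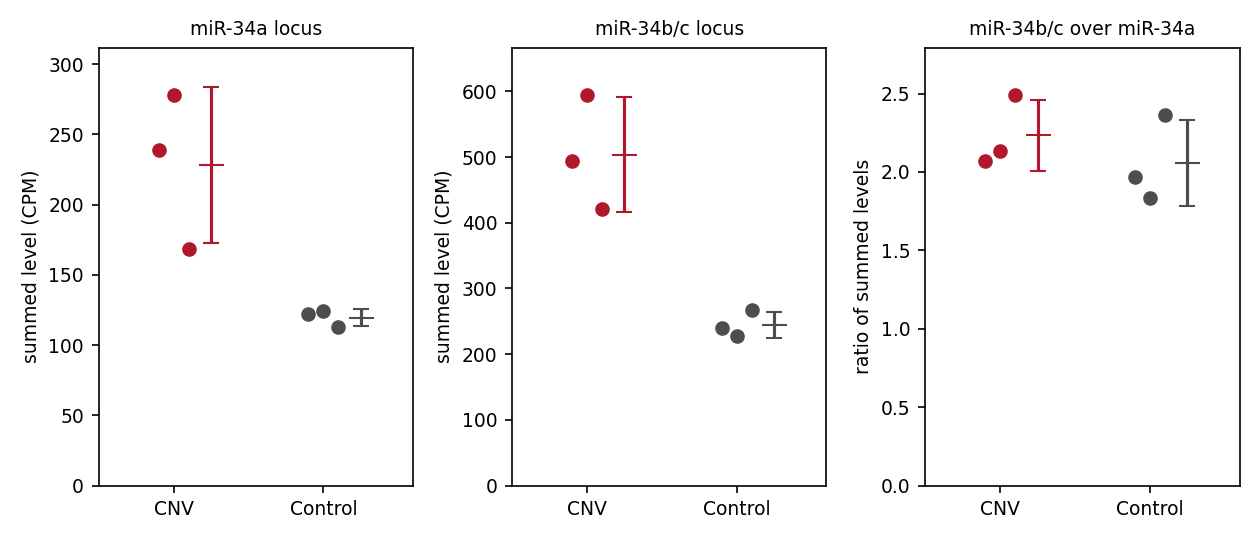
Summed level (CPM, TMM-scaled) of the miR-34a locus (left) and of the miR-34b/c locus (middle), and their ratio (right), per library, with the mean and SD beside the points (n = 3 each). Both sums are higher in CNV (red) than in Control (grey), and the ratios of the groups overlap between 1.83 and 2.49.

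The share of a precursor's counts on its 5p arm differed between precursors and overlapped between the groups. For miR-34b it was 80.0%, 74.0% and 79.1% in CNV, against 81.4%, 74.7% and 75.2% in Control. The exact 95% Clopper-Pearson intervals span 70.6% to 83.0% over the CNV libraries and 70.1% to 85.6% over those of Control, and the intervals of both groups overlap. The means were 77.7% ± 3.22 in CNV and 77.1% ± 3.75 in Control (SD, n = 3 each), where binomial counting alone gives SDs of 1.69 in CNV and 2.19 in Control. The SD of each group was thus larger than that from counting alone, a difference that was not tested with 3 libraries a group.

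For miR-34c the 5p share was 97.2%, 97.0% and 96.7% in CNV, against 97.4%, 96.7% and 96.3% in Control, with means of 97.0% ± 0.278 in CNV and 96.8% ± 0.578 in Control. For miR-34a it was 99.6% to 99.8% in CNV and 99.4% to 100.0% in Control. The share of miR-34a was the highest and that of miR-34b the lowest of the 3 precursors in each library.

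**Figure D4:**
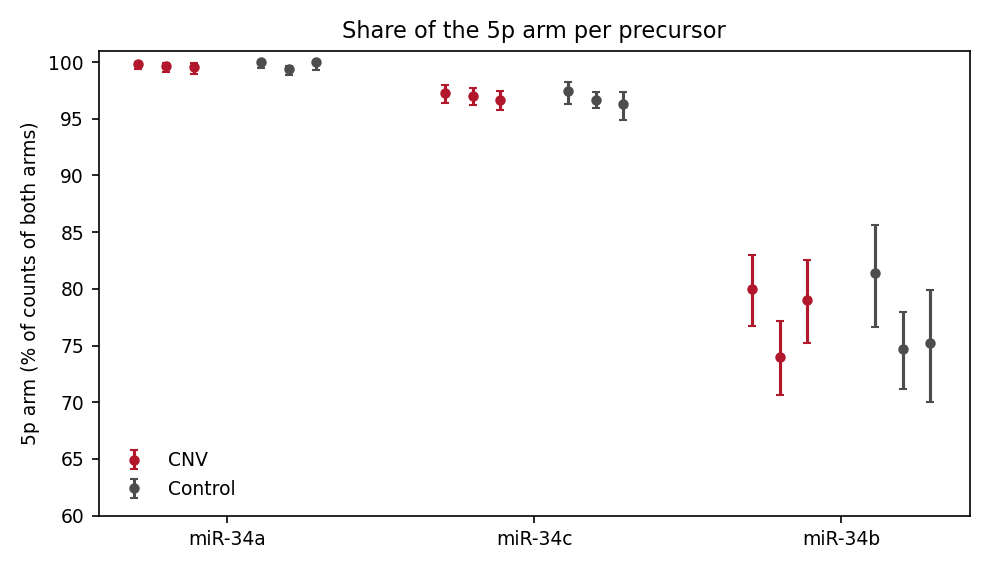
Share of the counts of both arms that fell on the 5p arm (percent, axis not from 0), per library, for miR-34a, miR-34c and miR-34b, with exact 95% Clopper-Pearson intervals for counting error. The CNV libraries (red) and the Control libraries (grey) overlap for each precursor, and miR-34b is lowest, at 74.0% to 81.4%.

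The miRNAs that carry the miR-34 seed were summed to see which of them make up the pool. By RefSeq's sequences the seed GGCAGUG is shared by miR-34a-5p, miR-34b-5p, miR-449a-5p and miR-449c-5p, and miR-34c-5p was added by its family name. The sum was 699.2, 824.1 and 560.1 CPM in CNV, against 348.8, 334.8 and 357.6 CPM in Control. Within it miR-34c-5p made up 53.97% ± 3.22 in CNV and 52.97% ± 1.49 in Control. The share of miR-34a-5p was 32.6% ± 2.26 in CNV and 34.4% ± 2.68 in Control, and that of miR-34b-5p 13.2% ± 1.19 in CNV and 12.1% ± 1.35 in Control. The make-up of the seed pool overlapped between the groups for each of these arms, while its sum did not.

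The miR-449 miRNAs were scarcely present. The highest, miR-449a-5p, had 11, 9 and 7 counts in CNV, against 8, 22 and 5 in Control, and made up 0.246% of the seed pool in CNV and 0.384% in Control. Of 7 miR-449 names looked for, 5 were listed, and the other 4 of these had at most 4 counts in a library. The filter on low counts left 0 of them to test. Thus miR-34b and miR-34c were counted here with almost no reads from miR-449, the miRNAs with which they are found in epithelia with motile cilia. Which cells gave the reads of miR-34b and miR-34c was not tested.

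Other miRNAs known to be induced or matured by p53 were compared with the family as a list, which was drawn up with earlier results known. Of its 14 miRNAs, 13 were tested, and 0 were called higher and 0 lower by edgeR (0 at an unadjusted p under 0.05, and 0 by DESeq2 and by limma-voom). Among all 541 tested miRNAs edgeR called 3 (0.555%) and counted 95 (17.6%) at an unadjusted p under 0.05, DESeq2 called 22 (4.07%) and limma-voom 3. Their log2 fold changes were positive for 8 and negative for 5, with a median of 0.0080, against 0.015 over all tested miRNAs. With total counts as the only scaling 4 were positive and 9 negative, with a median of -0.15, and that of all tested miRNAs was then -0.14. The 3 with the smallest p were miR-194-5p, miR-215-5p and miR-143-3p. The level of miR-194-5p, made with miR-192 or miR-215 and known from liver and gut epithelium, was 260.0 ± 41.1 CPM in CNV and 340.4 ± 63.5 CPM in Control, with a log2 fold change of -0.39 (SE 0.19, edgeR adjusted p = 0.346). Its CNV libraries all lay below its Control libraries, the only one of the 13 to do so in that direction, and 0 lay above. Over all tested miRNAs, 61 of 541 (11.3%) lay below in this way and 69 (12.8%) above. The level of miR-215-5p was 9.47 ± 9.66 CPM in CNV and 4.35 ± 1.36 CPM in Control, and rested on CNV libraries that ranged from 3.61 to 20.6 CPM (edgeR adjusted p = 0.404). The smooth muscle miRNA miR-143-3p had a log2 fold change of 0.29 (SE 0.18, edgeR adjusted p = 0.456). The difference between the miR-34 arms and this list was not tested.

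A list of 7 miRNAs known to target the messenger RNA of p53 itself was looked at in the same way. All 7 were tested, and 0 were called by edgeR in either direction, 0 at an unadjusted p under 0.05 and 0 by DESeq2 or limma-voom, to be read against the same 3, 95, 22 and 3 of 541 miRNAs. The log2 fold change was negative for 6 and positive for 1, with a median of -0.15. The lowest p was that of miR-125b-5p, a repressor of p53 known from zebrafish embryos and human cells, at 11836.7 ± 944.0 CPM in CNV and 14591.3 ± 1333.1 CPM in Control (log2 fold change -0.30, SE 0.14, edgeR adjusted p = 0.322). Its relative miR-125a-5p had a log2 fold change of -0.26 (SE 0.15, edgeR adjusted p = 0.425). The remaining named member, miR-25-3p, had one of 0.16 (SE 0.14, edgeR adjusted p = 0.648). The CNV and Control libraries did not overlap for miR-125b-5p and miR-125a-5p, both lower in CNV, as for 61 of 541 miRNAs, or 11.3%.

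The miRNAs whose levels were most like those of the family across the 6 libraries were sought among 370 miRNAs with a mean of at least 10 CPM, by Pearson's r of log2 CPM. Since r is taken over both groups, it holds their difference, and libraries share depth and tissue make-up, so it is given as a description. The 5 most like miR-34a-5p were miR-199a-5p (r = 0.979), miR-214-3p (0.972), miR-223-3p (0.968), miR-142a-5p (0.968) and miR-299a-3p (0.965). The 5 most like miR-34c-5p were miR-223-3p (r = 0.987), miR-10a-5p (0.981), miR-212-5p (0.968), miR-214-3p (0.964) and miR-21a-5p (0.957). Between miR-34a-5p and miR-34c-5p r was 0.959. With each library left out in turn, r stayed between 0.937 and 0.998 for these miRNAs. The order depends on the scaling: by total counts alone miR-199a-5p and miR-214-3p came 6th and 7th for miR-34a-5p, and miR-214-3p came 6th for miR-34c-5p, while the others stayed among the first 5.

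Of these 8 miRNAs, 5 had smaller fold changes than each of the tested miR-34 arms. The level of miR-223-3p, a myeloid miRNA, was 125.6, 131.9 and 111.4 CPM in CNV, against 75.5, 79.4 and 78.6 CPM in Control, a log2 fold change of 0.66. For miR-199a-5p and miR-214-3p, made from a shared transcript and 2 of the 4 fibroblast and sclera markers, the log2 fold changes were 0.53 and 0.62. The leukocyte miRNA miR-142a-5p had one of 1.08, within the range of the arms, with 537.8, 496.2 and 291.8 CPM in CNV, against 233.3, 226.0 and 169.4 CPM in Control. The fold changes of miR-10a-5p, which lies in a Hox cluster, and miR-21a-5p, a miRNA known to be high in injured and inflamed tissue, were larger. These 2 were called by edgeR, with log2 fold changes of 1.51 (adjusted p = 0.0452) and 1.83 (adjusted p = 0.0183). All 8 miRNAs had their highest or second highest level in CNV replicate 2 and their lowest CNV level in CNV replicate 3.

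Some of the miRNAs most like the family are also markers of cell types, and marker lists differed between the groups beside the family. The 4 myeloid and leukocyte markers (miR-142a-3p, miR-142a-5p, miR-150-5p and miR-223-3p) summed to 611.9 to 910.4 CPM in CNV and 463.1 to 581.1 CPM in Control, with a positive log2 fold change in 3 of 4. Those of fibroblasts and sclera summed to 22180.8 to 27716.9 CPM in CNV and 19225.5 to 21536.2 CPM in Control, positive in 4 of 4. Scaled by total counts alone, the groups overlapped for both lists. The 3 photoreceptor markers summed to 24725.8 to 49452.9 CPM in CNV and 49327.7 to 75748.2 CPM in Control, negative in 3 of 3, with CNV replicate 3 just above Control replicate 2. Scaled by total counts alone these sums were 23354.0 to 50863.0 CPM in CNV and 53462.8 to 84061.3 CPM in Control, with no overlap. The 5 neuron markers summed to 7828.0 to 12492.6 CPM in CNV and 13868.3 to 21049.2 CPM in Control, negative in 5 of 5. None of these markers was at 0 in a library and edgeR called 0 of them, and their part in the levels of miR-34 was not tested.

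Other lists did not follow the family in all libraries. The RPE markers were lower in all CNV libraries than in all Control libraries, with a ratio of means of 0.782. The endothelial markers, miR-126a-3p and miR-126a-5p, had a ratio of means of 0.936, with overlapping groups. Erythrocyte markers had a ratio of 1.52 but were lower in CNV replicate 3 (954.3 CPM) than in any Control library. Those of surface epithelium (ratio 1.26) and of skeletal muscle (ratio 1.05, or 0.951 with total counts as the only scaling) overlapped between the groups. The multiciliated markers, miR-449a-5p and miR-449c-5p, summed to 1.20 to 2.14 CPM in CNV and 1.38 to 1.72 CPM in Control, with miR-449c-5p at 0 in some libraries of both groups.

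**Figure D5:**
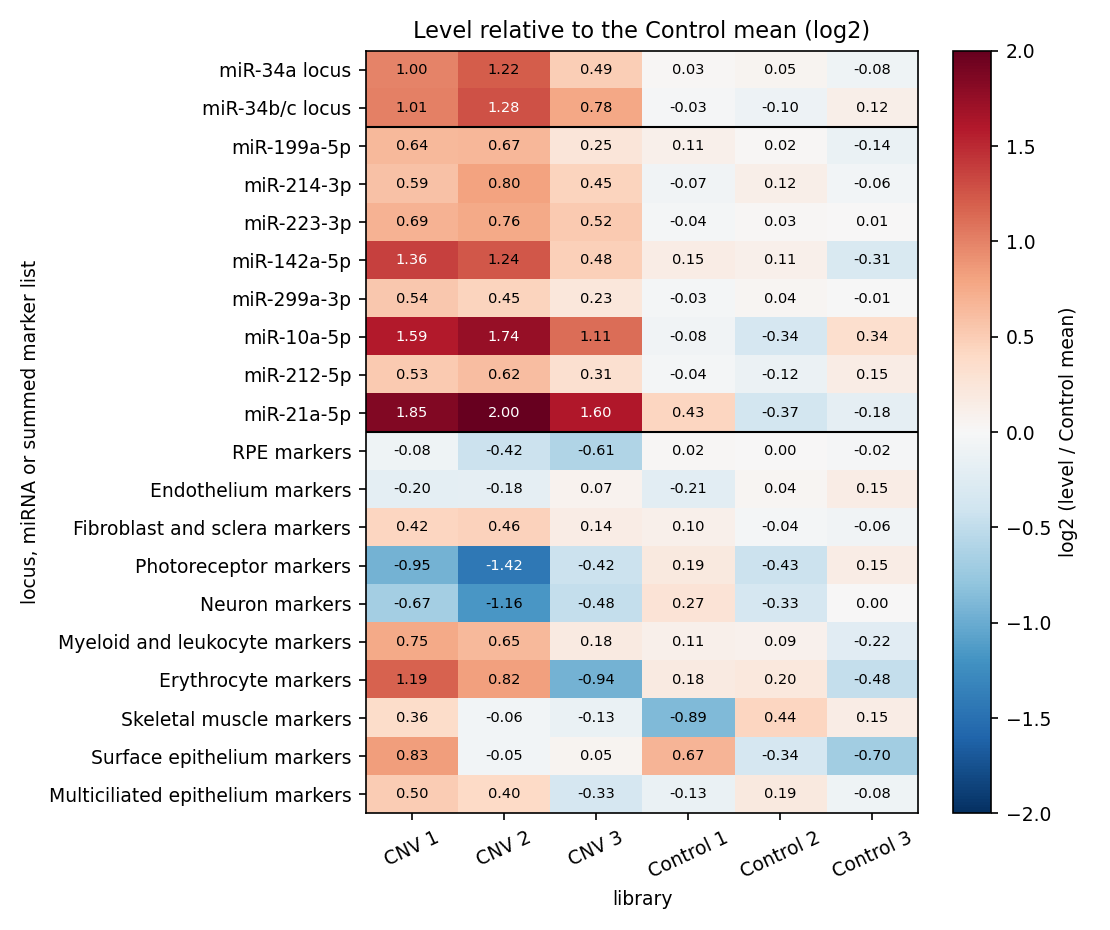
Log2 of the level in each library over the Control mean, for the loci of miR-34 (top), the miRNAs most like miR-34a-5p or miR-34c-5p (middle) and the summed marker lists (bottom). In CNV replicate 3 the loci are at 0.49 and 0.78, below the other CNV libraries, and the photoreceptor and neuron markers are nearest to Control there.

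The summed level of the family differed more among the CNV libraries than among the Control libraries. The whole family was at 733.0, 873.2 and 589.0 CPM in CNV replicates 1 to 3, against 362.1, 352.0 and 379.4 CPM in Control replicates 1 to 3. Its CV was 19.4% in CNV and 3.81% in Control, where counting alone gives 1.62% in CNV and 2.02% in Control. Among the tested arms only miR-34c-3p went the other way, with a CV of 15.4% in CNV and 22.4% in Control. Relative to the Control mean, CNV replicates 1, 2 and 3 were at 2.01, 2.40 and 1.62. CNV replicate 2 had the lowest sums of photoreceptor and neuron markers of the 6 libraries, and CNV replicate 3 the highest of the CNV group. With 3 libraries a group, the relation of these values to each other was not tested.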

How the data were processed

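Small RNA libraries with inserts of 14 to 40 nt were sequenced by Illumina chemistry, per the labels' protocols. The deposited tables of the authors give a read count per mature miRNA and tsRNA and library. Bowtie is listed in the submitters' processing notes. For its version, the build, the mismatch limit and the treatment of reads with several matches, nothing is given in the sources used here. A CPM column deposited beside the counts was left aside; for miRNAs it is the count over the sum of the listed miRNA counts.

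Counts were analysed in R 4.3.3. The filter of edgeR 4.0.16 (minimum count 10, minimum total 15) kept 541 miRNAs and 456 tsRNAs of 2334 small RNAs. These were scaled by TMM and fitted without covariates by edgeR's quasi-likelihood test, and p-values were adjusted over all 997 with a threshold of 0.05. Log2 CPM used a prior count of 2. DESeq2 1.42.0, limma 3.58.1 (voom), other scalings and filters, the replicate number as a block and each library left out were alternatives. The test was also run on counts simulated from the means and spread of these same data, which cannot show that it suits them. Totals of 5057142 to 12839386 counts per library set the precision, and intervals cover counting error only, and no molecular identifiers are mentioned in the labels.

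The members and lists were chosen with earlier results of these data known. Named miRNAs were the members, the miR-449 miRNAs and others with the seed, the 3 smallest p of the p53 lists, the 5 most like miR-34a-5p and miR-34c-5p, and the markers.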

Additional observations from a re-analysis of the deposited data

How the results depend on the processing

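All 73 alternative log2 fold changes of the 5 tested arms were positive, between 0.71 and 1.24, and 72 moved by less than the SD between replicates; the other was miR-34c-5p without CNV replicate 2, at 0.83. The locus sums and their ratio kept their direction throughout, with log2 differences of 0.70 to 1.03 for miR-34a and 0.85 to 1.10 for miR-34b/c; that of the ratio ranged from 0.042 to 0.23, all from leaving out a library, against 0.12. Total counts as the only scaling moved the median of all tested miRNAs by -0.15 (log2). The arms stayed positive but were lower, at 0.77 to 0.97, against 0.92 to 1.13 in the main fit. The ratios of the locus means were then 1.71 for miR-34a and 1.85 for miR-34b/c.

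Calls moved more. Against 3 small RNAs and 0 arms called, a fit of miRNAs only called 6 and 2, no filter 88 and 4, DESeq2 38 and 4, and a mean of at least 20 CPM called 0 small RNAs; the cause was not tested. With a library left out, 0 to 24 small RNAs and 0 to 3 arms were called. The highest counts came without CNV replicate 3, and 0 small RNAs were called without CNV replicate 1, CNV replicate 2, Control replicate 2 or Control replicate 3.

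Groups share replicate numbers in the titles. Deviations of same-numbered libraries from their group means correlated at 0.287, 0.030 and 0.172, against -0.257 to 0.152 between different numbers. Of the 6 libraries 5, all but Control replicate 2, correlated best with their own number. Each of these correlations is shared by a CNV and a Control library, so the 5 matches are not independent of each other. The labels do not say that the numbers pair libraries, so the main fit left them unpaired. Whether they are paired is not settled by these values. With the replicate block 36 small RNAs and 3 arms were called.

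Depth limits miR-34a-3p, with 0 to 11 counts a library, and to a lesser degree miR-34c-3p, with 28 to 83.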
